A study of Homo sapiens with 6 samples.

Results

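The transcription factors that commit blood progenitors to the granulocyte and monocyte lineages were followed in K562 cells that expressed wild-type C/EBPα or its p30 isoform. The 9 genes SPI1, GFI1, IRF8, KLF4, EGR1, RUNX1, RARA, VDR and ID2 were chosen by name, as genes known for roles in myeloid differentiation. All 9 had a value in each group, out of 17023 gene symbols with 1 value in each of the 3 groups. K562 is a human leukemia line, long established in culture, that expresses erythroid genes. RNA-seq was carried out on 6 samples, 2 each of the CTR line (empty vector), the CEBPA line (doxycycline-inducible wild-type C/EBPα) and the P30 line (inducible C/EBPα-p30). The constructs had been integrated stably with a PiggyBac transposon, and whether each line was 1 clone or a pool is not given in the sources used here. All 6 samples had been treated with doxycycline at 200 ng/ml for 48 h, the controls included. The authors deposited 1 FPKM per gene and group (fragment counts scaled to transcript length and library size), made from both replicates together. The tables hold no counts or depths, so that no SD, interval or p-value can be attached to any value here. Differences between the lines and effects of the expressed proteins cannot be told apart, because each construct was carried by 1 line and all samples received doxycycline.

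Myeloid commitment is directed by a small set of factors that cross-regulate each other. SPI1 encodes PU.1, an ETS factor needed for granulocytes and macrophages, and RUNX1 encodes the DNA-binding subunit of core binding factor, which acts upstream of SPI1 during blood formation. GFI1 is a repressor that favours the neutrophil fate, while IRF8, KLF4 and EGR1 are associated with monocytes and macrophages. RARA and VDR encode the nuclear receptors for retinoic acid and vitamin D, both of which can drive differentiation of myeloid leukemia cells, and ID2 encodes an inhibitor of basic helix-loop-helix factors. C/EBPα acts beside PU.1 at many myeloid genes, and p30, translated from a start codon further downstream, is a shorter protein that still binds DNA.

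The erythroid identity of the cells was checked first. Of 6 erythroid marker genes 4 had a value, and these summed to 1512 FPKM in CTR, 1079 in P30 and 627 in the CEBPA line. GATA1, the erythroid master regulator, was at 185 FPKM in CTR, 193 in P30 and 53.1 in the CEBPA line. Of 8 granulocyte markers 4 had a value (CSF3R, S100A8, S100A9 and S100A12), and these summed to 4.10 FPKM in CTR, 27.4 in P30 and 10022 in the CEBPA line. Of 6 monocyte or macrophage markers 5 had a value, which summed to 46.8, 51.5 and 1790 FPKM, almost all of it from LYZ (lysozyme). None of these markers was listed at 0 in any group. B cell markers (1 of 4 with a value) and T or NK cell markers (4 of 5) stayed below 9 FPKM in sum in every group, and megakaryocyte markers (3 of 4) summed to between 12.6 and 13.3 FPKM. Among these, GP9 was listed at 0 in CTR and PF4 and GNLY in P30. Fewer cells of a type and less RNA per cell cannot be told apart in such bulk samples, and the part of these markers in the changes described here was not tested. CEBPA itself was not analysed here.

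Sequences upstream of the transcription starts are shown for EGR1 and GFI1, the genes that were over 1 FPKM and at least 2-fold higher in CEBPA than in both other groups. Both are printed 5′ to 3′ on the strand of the gene, as the 250 bases before a RefSeq start (table on GRCh38.p14), and each was matched to 1 position of GRCh37, the build of the authors' alignment. The EGR1 window lies at chr5:137800918-137801167 on the plus strand, directly before the gene and outside annotated exons. Capitals mark the CArG boxes (the element bound by serum response factor) and TGACGT, the core of a cyclic AMP response element, which reads ACGTCA on the printed strand. The GFI1 window lies at chr1:92951657-92951906 on the minus strand, before the second of 3 RefSeq starts, inside the gene and outside annotated exons. Capitals mark TTGCGCAA, a palindromic form of the motif bound by C/EBP proteins.
EGR1: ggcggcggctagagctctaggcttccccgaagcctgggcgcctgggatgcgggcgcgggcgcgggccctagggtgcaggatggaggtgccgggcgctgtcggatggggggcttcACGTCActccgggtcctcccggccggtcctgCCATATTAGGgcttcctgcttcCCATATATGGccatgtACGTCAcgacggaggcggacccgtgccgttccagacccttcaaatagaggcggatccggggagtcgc
GFI1: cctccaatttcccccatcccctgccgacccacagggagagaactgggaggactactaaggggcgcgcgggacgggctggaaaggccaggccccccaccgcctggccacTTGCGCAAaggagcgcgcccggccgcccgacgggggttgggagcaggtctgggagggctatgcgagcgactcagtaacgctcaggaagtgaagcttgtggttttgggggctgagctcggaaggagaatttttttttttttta

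The table of upstream windows held 12 windows for 7 of the 9 genes (all but SPI1 and VDR), and both strands were searched. The C/EBP motif, searched as TTGCNNAA, occurred in 1 of the 12, the GFI1 window shown, from 142 to 135 bases before the start. Of all 35116 windows of the same length 9.05% held TTGCNNAA, close to the share among the 12. The palindrome TTGCGCAA, which overlaps it fully, was in 0.131%, but this form was chosen with the GFI1 sequence in view. CArG boxes occurred only in the window of EGR1 among the 12, at 105 to 96 and at 83 to 74 bases before the start, against 1.16% of all windows. TGACGT occurred there from 136 to 131 and from 67 to 62 bases before the start, and in 7.10% of all windows. The RUNX motif TGTGGT was found in 2 of the 12 windows (11.0% of all), and GAGGAA, a core bound by PU.1, in 3 (23.6% of all). CCAAT was found in 4 (32.0% of all). These are matches of letters only, no binding was assayed at these genes, and the FPKM do not separate transcripts from different starts.

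The levels of the 9 genes spanned a wide range. In CTR, SPI1, ID2 and EGR1 led with 41.3, 38.0 and 34.6 FPKM, followed by RUNX1 and RARA with 17.9 and 9.38 FPKM. The SPI1 level exceeded that of 84.0% of all genes in CTR. VDR, GFI1, KLF4 and IRF8 were all below 1 FPKM in CTR. In P30 the order began with SPI1, RUNX1 and ID2, and in CEBPA with EGR1, SPI1 and RUNX1. VDR, KLF4 and IRF8 did not exceed 1 FPKM in any group. Neighbours in these orders cannot be said to differ, since no spread between replicates is known.

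**Figure D1:**
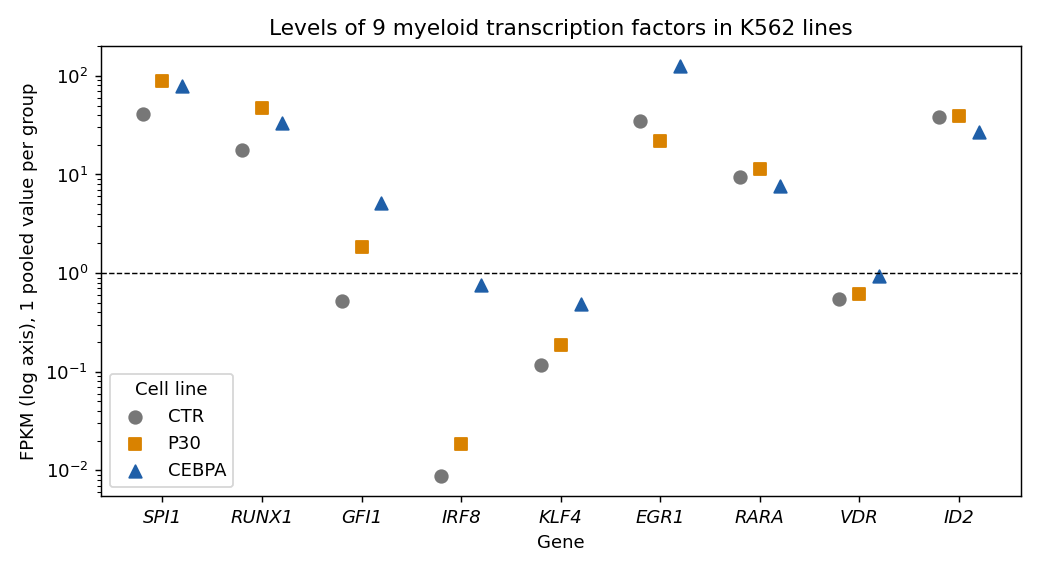
FPKM of each gene on a log axis, with 1 pooled value for CTR (circles), P30 (squares) and CEBPA (triangles) and no error bars, since replicates were pooled. The dashed line marks 1 FPKM, which VDR, KLF4 and IRF8 did not exceed in any group, while EGR1 reached 125 FPKM in CEBPA.

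Groups were then compared on the log2(FPKM + 1) scale, on which changes of genes with little expression come out too small. A gene entered the comparison when either group exceeded 1 FPKM, which 6 of the 9 genes did in each comparison, and a difference of 1 or more (2-fold) was counted. In CEBPA vs CTR, GFI1 and EGR1 of these 6 were at least 2-fold higher, beside 14.0% of the 13673 genes compared. At least 2-fold lower were 0 of the 6, beside 6.92%. In P30 vs CTR, SPI1 and RUNX1 were at least 2-fold higher, beside 1.02% of 12395 genes, and 0 were lower, beside 0.613%. In CEBPA vs P30, GFI1 and EGR1 were at least 2-fold higher, beside 13.1% of 13569 genes, and 0 were lower, beside 5.79%. SPI1 and RUNX1 stood just below this limit in CEBPA vs CTR (0.90 and 0.86), as did GFI1 in P30 vs CTR (0.90). GFI1 was below 1 FPKM in CTR, and entered the comparisons with CTR only through the other group. Counted without regard to size, 7 of the 9 genes were higher in CEBPA and 8 higher in P30 than in CTR. The median differences over all genes compared were -0.01 and 0.02. The counts of 7 and 8 include IRF8, KLF4 and VDR, which did not exceed 1 FPKM, and IRF8 differed by only 0.01 in P30 vs CTR. They also rest on the same CTR libraries.

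**Figure D2:**
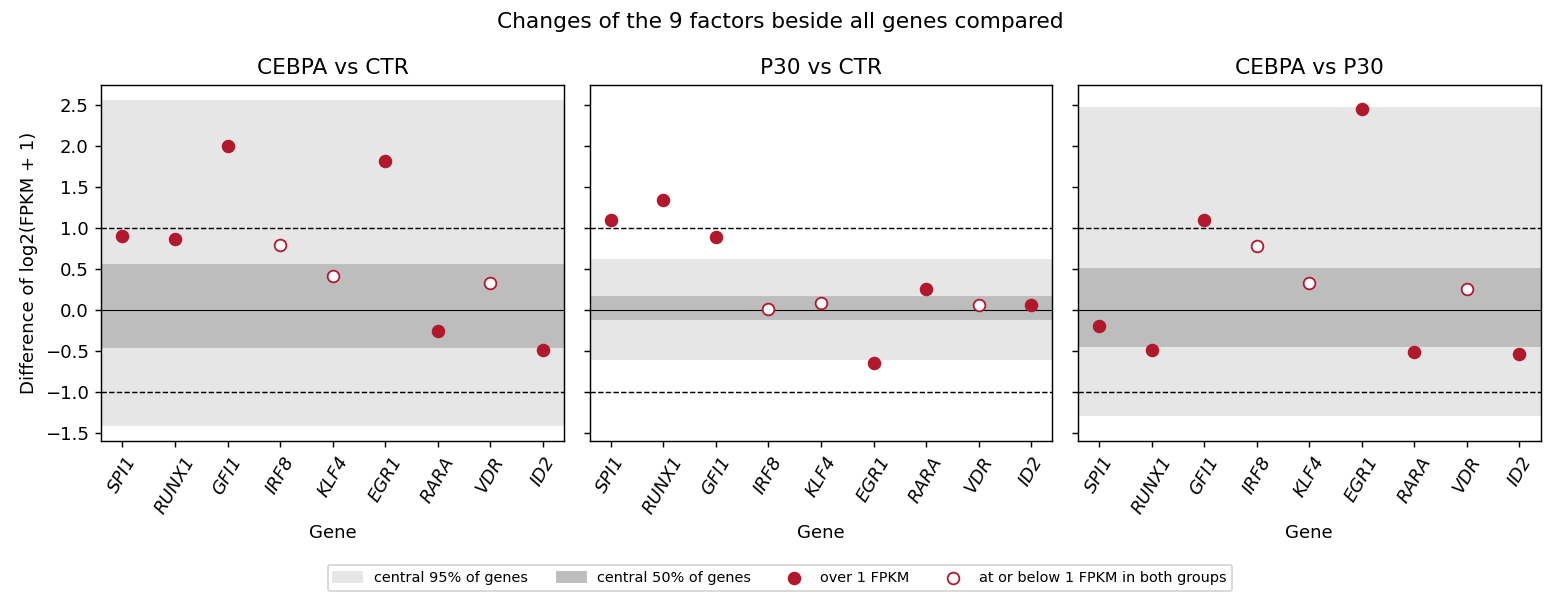
Differences of log2(FPKM + 1) for the 9 genes in the 3 comparisons, with filled points for genes over 1 FPKM in either group and open points for the others. Grey bands hold the central 50% and 95% of all genes compared, and dashed lines mark 2-fold; SPI1, RUNX1, GFI1 and EGR1 lie outside the 95% band in P30 vs CTR and inside it in CEBPA vs CTR.

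SPI1, the gene of PU.1, stood at 41.3 FPKM in the CTR line, 89.4 in the P30 line and 78.2 in the CEBPA line. It was thus lowest in CTR, and the P30 and CEBPA levels lay close together. The log2 difference was 1.10 in P30 vs CTR, a ratio of 2.16, and 103 of 12395 genes (0.831%) were as high or higher. In CEBPA vs CTR it was 0.90, a ratio of 1.89, which 16.1% of genes reached. Between CEBPA and P30 it was only -0.19.

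RUNX1 showed the same order, with 17.9 FPKM in CTR, 47.1 in P30 and 33.3 in the CEBPA line. Its difference was 1.35 in P30 vs CTR, a ratio of 2.63, and 70 of 12395 genes (0.565%) were as high or higher. In CEBPA vs CTR the difference was 0.86, which 16.9% of genes reached. CBFB, which encodes the partner subunit of RUNX1, had 38.4, 46.2 and 42.9 FPKM in CTR, P30 and CEBPA. RUNX1 was therefore at 0.465 times the FPKM of CBFB in CTR, 1.02 times in P30 and 0.775 times in CEBPA. Of 6 relatives and partners of RUNX1, 4 had a value, CBFB among them. In CEBPA vs CTR 1 of 4 was at least 2-fold higher (14.0% of all genes) and 1 lower (6.92%). The higher gene was RUNX2, a relative of RUNX1 known from bone, with a log2 difference of 1.52. It had 0.384 FPKM in CTR and only 2.96 in CEBPA, and was compared only through CEBPA. The lower gene was CBFA2T3, a corepressor of the ETO family found in erythroid complexes. It had 30.6 FPKM in CTR, 35.9 in P30 and only 11.1 in CEBPA, a log2 difference of -1.39 in CEBPA vs CTR. Its relative CBFA2T2 was near level, with 6.67, 7.22 and 7.78 FPKM. In P30 vs CTR 0 of 3 genes passed 2-fold (1.02% of all genes higher and 0.613% lower).

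GFI1 had 0.524 FPKM in CTR against 1.84 in P30 and 5.09 in CEBPA. The P30 value lay between the other 2 groups, all of them low. The log2 difference was 2.00 in CEBPA vs CTR, which 4.17% of genes reached, and 0.90 in P30 vs CTR, which 1.28% reached. Between CEBPA and P30 it was 1.10. Its erythroid paralog GFI1B ran in the opposite order, with 63.7 FPKM in CTR, 44.2 in P30 and 15.4 in the CEBPA line. The ratio of GFI1 to GFI1B was 0.00822 in CTR, 0.0416 in P30 and 0.331 in CEBPA, so that GFI1B remained the more abundant of the pair in every group. The cofactors through which GFI1 and GFI1B repress genes, KDM1A, RCOR1 and the histone deacetylases HDAC1, HDAC2 and HDAC3, all stayed within 2-fold in every comparison. GFI1B was thus the only 1 of these 6 genes past 2-fold in CEBPA vs CTR, where 6.92% of all genes were lower. In P30 vs CTR 0 of the 6 passed 2-fold (1.02% of all genes higher and 0.613% lower).

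EGR1, an immediate-early zinc finger factor, had 34.6 FPKM in CTR against 21.8 in P30 and 125 in CEBPA. It was the only one of the 9 genes that was higher in CEBPA and lower in P30 than in CTR. The log2 difference was 1.82 in CEBPA vs CTR (5.08% of genes as high or higher) and -0.64 in P30 vs CTR (1.96% as low or lower). Against P30, the CEBPA level was 5.71 times as high, a log2 difference of 2.46 that 2.53% of genes reached. NAB1 and NAB2, corepressors that bind EGR proteins, together had 27.4 FPKM in CTR against 22.0 in P30 and 17.2 in CEBPA, and the ratio of EGR1 to their sum was 1.26, 0.992 and 7.24.

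IRF8 had 0.00882 FPKM in CTR against 0.0187 in P30 and 0.755 in CEBPA, and KLF4 had 0.117, 0.189 and 0.491 FPKM. VDR had 0.548, 0.619 and 0.938 FPKM. These 3 genes were highest in CEBPA, but remained at or below 1 FPKM, where the size of a change depends on the pseudocount, and IRF8 and KLF4 had no row in the table of CTR and P30. No fold is therefore given for them.

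For RARA and ID2, and for no other of the 9 genes, CEBPA was the lowest of the 3 groups. RARA had 9.38 FPKM in CTR against 11.4 in P30 and 7.69 in CEBPA, and its log2 difference from CTR was -0.26 in CEBPA and 0.26 in P30. RXRA, which encodes the dimer partner of both RARA and VDR, had 15.9, 15.7 and 12.1 FPKM. ID2 had 38.0 FPKM in CTR against 39.5 in P30 and 26.8 in CEBPA, a log2 difference of -0.49 in CEBPA vs CTR, which 22.9% of genes reached or passed, and of 0.05 in P30 vs CTR. Neither RARA nor ID2 reached 2-fold in any comparison.

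Levels of the myeloid factors were also set against those of factors known to oppose them. PU.1 and GATA1 inhibit each other in erythroid and myeloid cells, and the ratio of SPI1 to GATA1 was 0.224 in CTR, 0.463 in P30 and 1.47 in CEBPA. In P30 this ratio was 2.07 times that of CTR, with SPI1 higher and GATA1 nearly level, whereas in CEBPA it was 6.58 times that of CTR, with SPI1 higher and GATA1 lower. The inhibitors ID1, ID2 and ID3 summed to 122 FPKM in CTR, 165 in P30 and 65.4 in the CEBPA line, and the E proteins that they bind, TCF3, TCF4 and TCF12, to 115, 106 and 96.9 FPKM. Their ratio was 1.06, 1.56 and 0.676. Within the ID family the members differed: ID1 had 48.0, 89.2 and 27.7 FPKM in CTR, P30 and CEBPA, and ID3 had 35.7, 36.1 and 11.0. ID3, with a log2 difference of -1.61 in CEBPA vs CTR, was the only 1 of the 5 genes in this list past 2-fold there, where 6.92% of all genes were at least 2-fold lower.

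**Figure D3:**
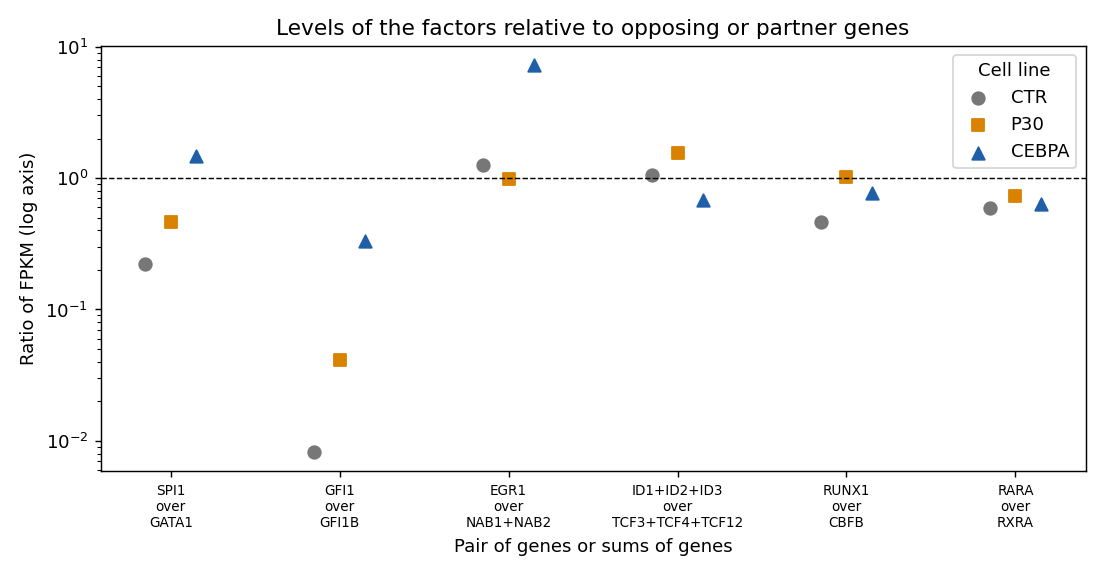
Ratios of FPKM on a log axis between myeloid factors and opposing or partner genes, with 1 pooled value for CTR, P30 and CEBPA and a dashed line at 1. SPI1 over GATA1 is above 1 only in CEBPA (1.47), GFI1 over GFI1B is lowest in CTR (0.00822), and RARA over RXRA lies between 0.591 and 0.727 in the 3 groups.

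Genes known as targets of the 9 factors, and their relatives, were listed from general knowledge. Each list is given by its counts in CEBPA vs CTR, and most also in P30 vs CTR. These are to be read against all genes compared, of which 14.0% were at least 2-fold higher and 6.92% lower in CEBPA vs CTR, and 1.02% higher and 0.613% lower in P30 vs CTR. Lists of a few genes can differ from these shares by a single gene. A gene below 1 FPKM in CTR was compared only if the other group exceeded 1 FPKM, and so could only come out higher. This holds for the lists and for all genes compared. Of 21 targets of PU.1, 17 had a value. In CEBPA vs CTR 10 of 17 were at least 2-fold higher (14.0% of all genes) and 0 lower, with a list median of 1.64 beside -0.01 over all genes. The largest of these were CYBB, the catalytic subunit of the phagocyte NADPH oxidase (1.79 FPKM in CTR, 1.90 in P30 and 152 in the CEBPA line), and LYZ (45.5, 47.6 and 1781 FPKM). The lysosomal protease gene CTSS had 18.3, 34.2 and 484 FPKM, and CSF3R, the G-CSF receptor gene, 2.91, 2.80 and 59.0. For the integrin gene ITGB2 the values were 1.39, 20.3 and 39.9 FPKM, so that it was highest in CEBPA. Its log2 difference in CEBPA vs CTR was 4.10, larger than that of CSF3R (3.94). In P30 vs CTR 5 of 14 were at least 2-fold higher (1.02% of all genes) and 0 lower, with a median of 0.43 beside 0.02 over all genes. Among them were the integrin genes ITGB2 (3.16 on the log2 scale) and ITGAM (2.09), the oxidase gene NCF4 (1.65), and CSF1R (1.19), the M-CSF receptor gene. ITGAM had 2.59 FPKM in CTR against 14.3 in P30 and 2.43 in CEBPA, and NCF4 had 2.11, 8.78 and 1.50, so that both were high in P30 alone. CYBB, LYZ and CSF3R by contrast differed by at most 0.07 between P30 and CTR. LYZ, CSF1R, FCGR1A and CSF3R also stand among the monocyte and granulocyte markers, and many of these genes are known targets of C/EBPα as well.

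The ETS relatives of PU.1 had a value for 10 of 14 genes. ETS2, a relative that responds to growth factor signals, had 6.98 FPKM in CTR against 6.65 in P30 and 49.5 in CEBPA, and ELK4, a partner of serum response factor, 5.74, 6.31 and 13.6 FPKM. They were the 2 of 9 genes at least 2-fold higher in CEBPA vs CTR (14.0% of all genes), and 0 of 9 passed 2-fold in P30 vs CTR (1.02% of all genes higher and 0.613% lower). Of 12 targets of RUNX1, 7 had a value and 6 were compared. In CEBPA vs CTR 1 of 6, CSF1R, was higher (14.0% of all genes). NFE2 (a log2 difference of -1.42), an erythroid and megakaryocyte factor, and the myosin light chain gene MYL9 (-1.26) were the 2 lower genes (6.92% of all). In P30 vs CTR only CSF1R of the 6 passed 2-fold (1.02% of all genes higher and 0.613% lower).

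EGR1 was read beside the genes of its family and other immediate-early genes, of which 23 of 28 had a value. In CEBPA vs CTR 7 of 20 were at least 2-fold higher (14.0% of all genes) and 1 lower (6.92%), and in P30 vs CTR 0 of 18 passed 2-fold in either direction, where 1.02% of all genes were higher and 0.613% lower. The AP-1 genes FOSL2 and FOS stood at 23.6 and 21.2 FPKM in CEBPA, from 0.350 and 2.21 in CTR. The orphan receptor gene NR4A2 had 1.38 FPKM in CTR and 11.2 in CEBPA, the stress-responsive factor gene ATF3 10.8 and 27.0, and EGR3 0.112 and 1.49. In P30 these 5 genes had 0.861, 1.66, 1.51, 6.09 and 0.0408 FPKM, respectively. ATF3, like EGR1, was lower in P30 than in CTR, by a log2 difference of -0.74. The antiproliferative gene BTG2 was the 1 lower gene, with 48.0 FPKM in CTR and 22.9 in CEBPA. SRF, the factor that binds CArG boxes, was level, with 24.2, 25.7 and 23.8 FPKM in CTR, P30 and CEBPA.

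Among the other KLF genes, 13 of 14 had a value, and 4 of 12 were at least 2-fold higher (14.0% of all genes) and 1 lower (6.92%) in CEBPA vs CTR. KLF5 had 0.709 FPKM in CTR against 0.721 in P30 and 28.9 in CEBPA, a log2 difference of 4.13, far above KLF4. KLF7, KLF2 and KLF15 were 1.50, 1.24 and 1.22 higher on the log2 scale but did not exceed 4 FPKM. All 4 higher genes were below 1 FPKM in CTR, and so were compared only because CEBPA exceeded 1 FPKM. Their count therefore says little about the family. The lower gene was the erythroid factor KLF1, with 160 FPKM in CTR, 115 in P30 and 42.3 in the CEBPA line. In P30 vs CTR 0 of 9 KLF genes passed 2-fold (1.02% of all genes higher and 0.613% lower). Of 8 other IRF genes 6 had a value, and 1 of 6, IRF2, was at least 2-fold higher in CEBPA vs CTR, close to the share of all genes (14.0%), with 7.45 FPKM in CTR and 17.2 in CEBPA.

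Of the genes known to be repressed by GFI1, 8 of 9 had a value, and 3 of 7 were at least 2-fold higher (14.0% of all genes) and 1 lower (6.92%) in CEBPA vs CTR. The homeobox gene MEIS1 (1.58 on the log2 scale) and CSF1R (1.33) were among the higher genes, and ID3 was lower. Of 16 nuclear receptors and coregulators beside RARA and VDR, 13 had a value. PPARG, a lipid-sensing receptor of macrophages, was the 1 of 13 past 2-fold in CEBPA vs CTR (14.0% of all genes higher and 6.92% lower), with 0.0420 FPKM in CTR and 3.06 in CEBPA. Of 5 retinoic acid targets with a value, 4 were compared in CEBPA vs CTR. CD38 was the 1 higher gene (14.0% of all), with 0.168 FPKM in CTR and 5.68 in CEBPA. TGM2 was the 1 lower gene (6.92% of all), with 40.0 and 16.5 FPKM. Of 5 vitamin D targets with a value, 3 were compared there. The antimicrobial peptide gene CAMP was the 1 higher gene, with 0.0480 FPKM in CTR against 0.0427 in P30 and 12.2 in CEBPA. LRP5 was the 1 lower gene, with 15.2, 16.5 and 7.00 FPKM. CAMP is also a granule gene of neutrophils. None of the nuclear receptor lists had a gene past 2-fold in P30 vs CTR, where 1.02% of all genes were higher and 0.613% lower. Only 12 receptors and coregulators, 4 retinoic acid targets and 1 vitamin D target were compared there.

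**Figure D4:**
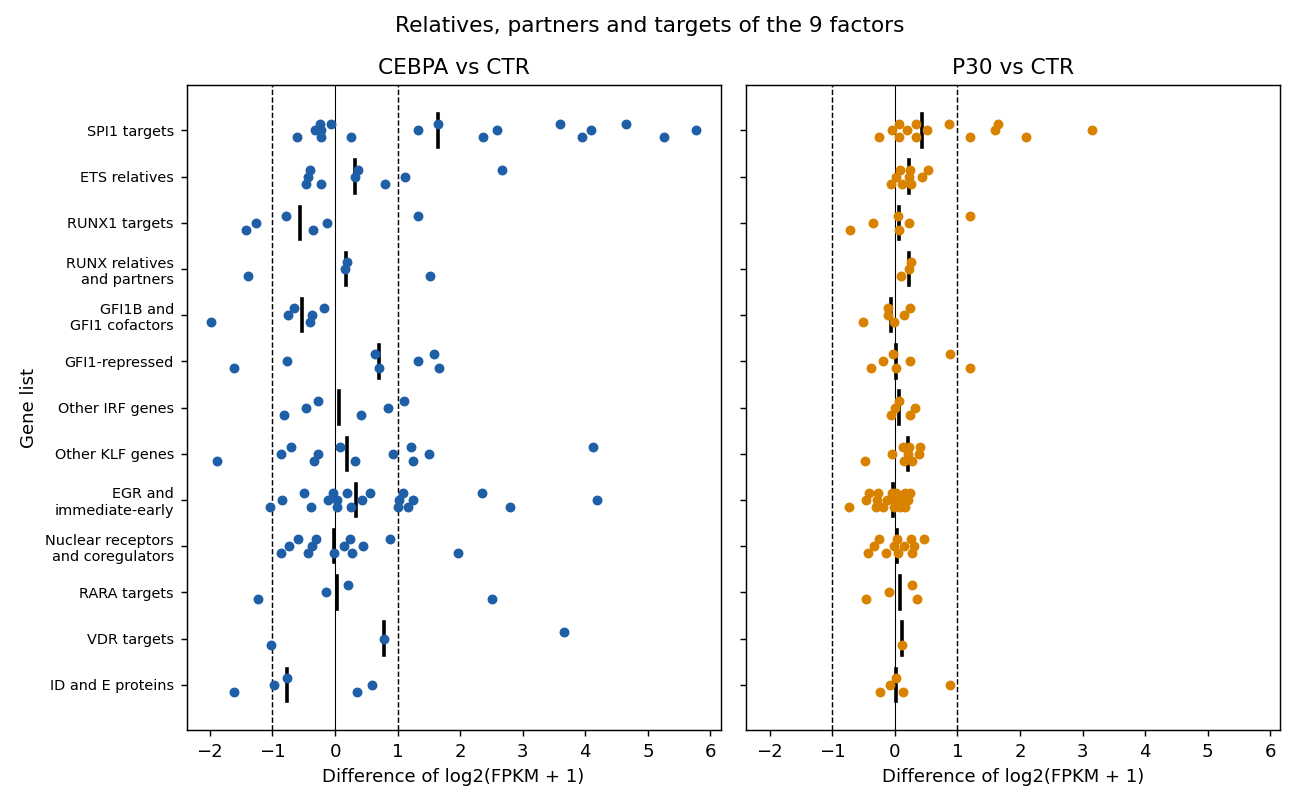
Differences of log2(FPKM + 1) for the genes of each list in CEBPA vs CTR and P30 vs CTR, 1 point per gene over 1 FPKM in either group, with a black bar at the list median and dashed lines at 2-fold. In P30 vs CTR the points past 2-fold are 5 targets of PU.1, with CSF1R drawn again among the targets of RUNX1 and the genes repressed by GFI1.

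Genes with the most similar pattern were sought for the 6 genes over 1 FPKM, by the distance between their pairs of log2 differences (CEBPA vs CTR and P30 vs CTR), among genes within 1 log2 unit of the mean level. Few genes were close to EGR1: of 3532 candidates the nearest was VWA5A, at a distance of 0.43, with 19.3 FPKM in CTR, 16.2 in P30 and 78.2 in the CEBPA line, followed by SERPINB9 and ALDH1A1. For SPI1 the nearest of 2679 was CETN2 (0.32; 27.9, 50.6 and 60.3 FPKM), followed by NT5C3A and FAM89A. RUNX1 had 1 close neighbour of 4392, GALM at 0.03 (16.0, 43.3 and 29.8 FPKM), and the next, TES and LCP1, were at 0.47 and 0.52. GFI1 was nearest to FGD3 at 0.05 (0.677, 2.03 and 5.55 FPKM), AC114737.3 and LINC01094. RARA and ID2 had neighbours at distances up to 0.02, C1R, PAQR8 and UNC93B1 for RARA and BID, GTPBP3 and ZNF496 for ID2. The pairs of differences share the CTR libraries, and with 3 pooled values per gene this likeness is a description only.

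In GRCh37 the genes lie on 9 different chromosomes. SPI1 (ENSG00000066336) lies at chr11:47376411-47400098 on the minus strand, RUNX1 (ENSG00000159216) at chr21:36160098-37376965 on the minus strand, GFI1 (ENSG00000162676) at chr1:92938600-92952482 on the minus strand, and EGR1 (ENSG00000120738) at chr5:137801168-137804992 on the plus strand. All 9 are protein coding. The positions come from a Gencode annotation newer than that behind the FPKM. In this annotation 16 other genes overlap 5 of the 9 (KLF4, RUNX1, RARA, VDR and ID2), none of which had a value under the same symbol, and whether the FPKM of these 5 genes include reads of an overlapping gene was not tested.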

How the data were processed

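RNA-seq of 6 K562 samples was used, 2 each of CTR, CEBPA and P30, all treated with doxycycline. The authors used TopHat to align stranded read pairs (hg19), Cufflinks with a Gencode reference to assemble transcripts, and Cuffdiff to estimate FPKM. They deposited FPKM in 3 tables, 1 per pair of groups, with both replicates pooled. How Cuffdiff scaled the libraries, and how rows were selected for each table, are not given in the sources used here. The tables hold no counts, and depth in them is unknown.

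Differences of log2(FPKM + 1) were computed between groups, keeping genes above 1 FPKM in either group. Symbols that occur more than once in a table were left out of values across the 3 groups. With 1 value per group no test was possible. A fit across samples, planned in case of values per sample, was not run. Members and lists were chosen with earlier results of these data known, and the motifs with the sequences in view. All members are named. In each list those past 2-fold are named, or the 5 largest where there are more. The targets of PU.1 named in P30 vs CTR and BTG2 were named after their values were seen. Values of some listed genes are not reported here. Alternatives were a pseudocount of 0.1, centring, summed rows, no filter and a filter at 5 FPKM. The computation was tested on simulated data. The scripts ran under Python 3.11.15 (numpy 2.4.6; pandas 2.3.3; matplotlib 3.10.9).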

Additional observations from a re-analysis of the deposited data

How the results depend on the processing

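No paired analysis was possible because both replicates of a group share 1 FPKM, and for the same reason neither replicate could be left out. In place of replicate error, a shift of over 0.20 on the log2 scale (the spread of P30 vs CTR over all genes), or of over 1.5 times in a count, was called a move. Across 51 results, 195 values were recomputed, of which 178 did not move and 17 did. The median of the 9 genes in CEBPA vs P30, which is the value of VDR, a gene below 1 FPKM, went from 0.26 to 0.53 with a pseudocount of 0.1. The number of the 9 genes past 2-fold, among those over the FPKM minimum, was 2 in each comparison under each alternative, except 3 in P30 vs CTR with a pseudocount of 0.1, where GFI1 was added. Of 81 recomputed differences of single genes 10 moved, all of GFI1, IRF8, KLF4 or VDR and all with a pseudocount of 0.1, which put IRF8 at 2.97 and GFI1 at 3.06 against CTR in CEBPA and at 1.63 against CTR in P30. The 1 change of sign was IRF8 in P30 vs CTR, -0.01 after centring. The background of P30 vs CTR went from 126 higher and 76 lower genes to 200 and 184 with a pseudocount of 0.1, and to 81 higher with a filter at 5 FPKM. This filter left 1216 genes higher in CEBPA vs CTR in place of 1921, 1080 in place of 1780 in CEBPA vs P30, and 3 in place of 5 targets of PU.1 higher in P30 vs CTR, since fewer genes were compared.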

Other observations

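The chromosomal surroundings of the 9 genes were looked at after the other values had been seen. Within 200 kb of them in GRCh37, 45 other protein coding genes had over 1 FPKM in at least 1 group. In P30 vs CTR 0 of the 45 were past 2-fold in either direction (1.02% of all genes higher and 0.613% lower). In CEBPA vs CTR 2 were higher (14.0% of all genes) and 3 lower (6.92%). In CEBPA vs P30 2 were higher (13.1%) and 5 lower (5.79%). Around SPI1 10 genes were compared and 0 passed 2-fold in any comparison, too few genes to set against these shares. The nuclear receptor gene NR1H3, which lies near SPI1, differed from CTR by -0.31 in CEBPA and -0.43 in P30 on the log2 scale, opposite in sign to SPI1. This was not particular to NR1H3, since most of the 10 genes had a negative difference in each of these comparisons. CELF1 was higher than CTR in both (0.53 in CEBPA and 0.16 in P30). Around RUNX1 and around GFI1 3 genes each were compared, with 0 past 2-fold, and these are too few as well. Near EGR1, GFRA3, a receptor gene of the GDNF family, was 1.57 higher in CEBPA vs CTR and REEP2 had a difference of -1.61. KIDINS220, next to ID2, was 1.10 higher in CEBPA while ID2 was not. The other lower genes in CEBPA vs CTR were IGFBP4, near RARA (-1.14), and TMEM106C, near VDR (-1.14).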
